A study of Mus musculus with 6 samples.

Results

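The genes described here are 9 genes of YAP/TEAD transcription and of caveolae in 4T1 cells: Yap1, Wwtr1, Tead1, Tead4, Amotl2, Ankrd1, Lats2, Cav1 and Cav2. Every probe set annotated to exactly 1 gene symbol, that symbol being one of the 9, was kept. This gave 21 of the 45037 probe sets on the array, or 9 of the 18193 genes with such a probe set. 4T1 is a mouse mammary carcinoma line that forms tumours and metastases in mice. The 4T1 cells had been transduced either with a vector expressing NFAT1 shRNA (3 arrays) or with a control shRNA vector (3 arrays). They were collected in culture after 10 days of selection, and labelled RNA was made from 200 ng of total RNA per sample. NFAT1, encoded by Nfatc2, is a transcription factor activated by calcium through calcineurin, and the comparison asks which transcripts differ when it is targeted.

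YAP, encoded by Yap1, and TAZ, encoded by Wwtr1, are transcriptional coactivators that bind TEAD factors on DNA and switch on genes of growth, adhesion and matrix. The Hippo kinases, among them LATS2, phosphorylate YAP and TAZ and keep them out of the nucleus, and angiomotin-family proteins such as the product of Amotl2 hold them in the cytoplasm. Amotl2, Ankrd1 and Lats2 are themselves transcribed through YAP and TEAD, so that Amotl2 and Lats2 also act as feedback inhibitors. Caveolins are the membrane proteins that, with cavins, form the flask-shaped pits called caveolae, which flatten when a membrane is stretched. Messenger RNA levels do not report the phosphorylation or the location of YAP and TAZ, through which the pathway mainly acts.

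Values are log2 signals after RMA, which normalizes all arrays to one distribution, and differences are NFAT1 shRNA minus control shRNA with their standard error (SE). Means are given with the standard deviation (SD) over 3 arrays, and adjusted p is the Benjamini-Hochberg value of limma over all 45037 probe sets, with 0.05 as the threshold. No label states that the 3 arrays of a group are separate cultures, so the p-values rest on a spread among arrays that may be technical. RNA came from whole cultures, so a lower signal in every cell and a smaller share of cells with signal cannot be told apart. Probe sets of one gene read the same transcripts and are not independent, and the level of one probe set is not set against that of another.

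Some arrays stood apart from their group. NFAT1 shRNA 1 correlated across probe sets with the controls at 0.991 to 0.995, and with NFAT1 shRNA 2 and 3 at 0.986 and 0.985. Among 222 probe sets with 1 symbol, a signal of at least 7 and control arrays at least 2-fold apart, control 3 lay between the other two for 220. This was so for 11 of the 21 probe sets of the 9 genes, but on all 21 the control arrays lay within 0.5 of each other. The targeted gene Nfatc2 had a lower mean on 4 of its 6 probe sets, and 0 of the 6 passed with limma over all probe sets, with 1 higher and 2 lower at an unadjusted p under 0.05 (15.7% of all probe sets). The higher one, 1426032_at, is the brightest and differed by 0.35 without overlap, whereas 1439205_at differed by -0.76 (adjusted p = 0.0707). Arrays are therefore named by their labels. All 7 listed epithelial markers of 4T1 cells, Epcam, Cdh1, Krt8, Krt18, Krt7, Krt19 and Cldn7, read at least 9.29 on every array. Array medians were 5.42 to 5.48, and of the leukocyte and muscle markers measured, 0 of 4 and 0 of 5 exceeded them on all arrays. The only such markers were Pdgfra of 5 fibroblast markers and Kdr of 4 endothelial markers, with differences of 0.49 and 0.31 (limma adjusted p = 0.666 and 0.292), and their part in the results was not tested.

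None of the 21 probe sets passed with limma over all probe sets, where 90 of 45037 (0.2%) passed. Wwtr1 had a higher mean in NFAT1 shRNA cells on all 3 of its probe sets, about 1.4-fold. Cav1 had a mean 56.5% of control, and Amotl2 one of 72.4%. Ankrd1 differed by little in the mean but spread over more than 2-fold within the NFAT1 shRNA group. An unadjusted p under 0.05 was found for 5 of the 21 probe sets, against a background of 15.7%. The groups did not overlap for 7 of the 21, 3 with NFAT1 shRNA higher and 4 with it lower, against 20.9% of all probe sets (11.6% higher and 9.33% lower). The 3 higher ones were all of Wwtr1, and are also among the 5 with an unadjusted p under 0.05. The 4 lower ones were of Tead4, Amotl2, Lats2 and Cav1. The median difference over the 21 probe sets was -0.060, beside 0.019 over all probe sets.

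**Figure D1:**
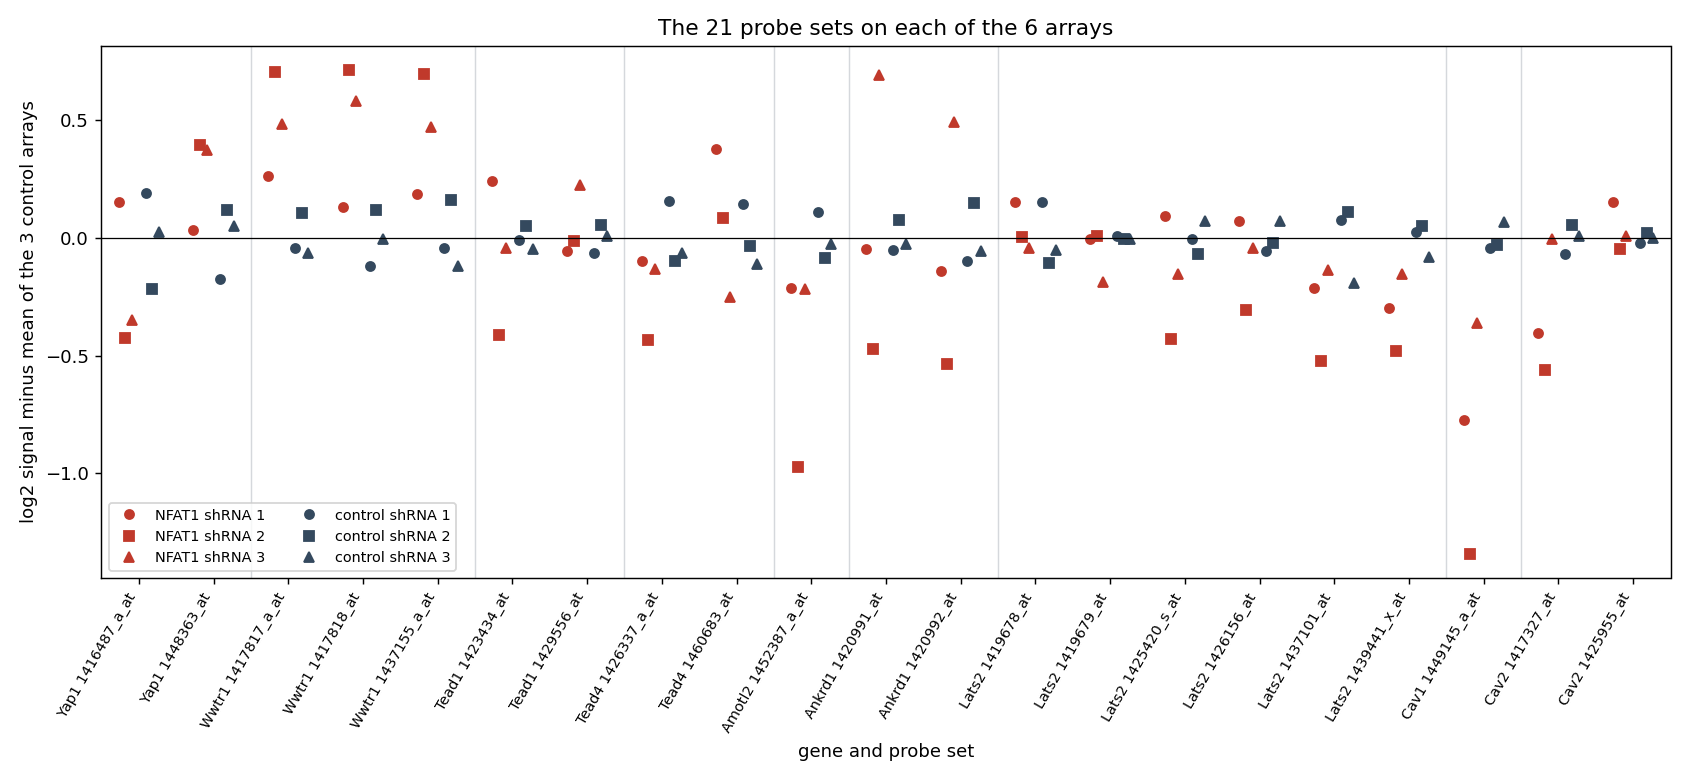
Log2 signal of each of the 21 probe sets on each array, as the distance from the mean of the 3 control arrays. Red marks are NFAT1 shRNA arrays and dark marks control arrays, with circle, square and triangle for replicates 1, 2 and 3. The 3 Wwtr1 probe sets lie above the controls on every NFAT1 shRNA array, Cav1 below them, and Ankrd1 on both sides.

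The NFAT1 shRNA arrays were more spread than the control arrays for 20 of the 21 probe sets, against 69.1% of all probe sets. The median range within the group was 0.51 for NFAT1 shRNA and 0.17 for control over the 21 probe sets, and 0.30 and 0.20 over all. NFAT1 shRNA 2 was the lowest of the 6 arrays for 13 of the 21 probe sets, and for 21.4% of all probe sets. This count was made after the values were seen. Of the 21 probe sets, 2 had both group means under the array medians, against 21633 of all 45037. The backgrounds are therefore not matched for brightness, and the part of brightness was not tested.

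The coactivator genes come first. Wwtr1 on 1417817_a_at read 9.40, 9.84 and 9.62 on NFAT1 shRNA arrays 1 to 3, against 9.10, 9.24 and 9.07 on control arrays 1 to 3. Every NFAT1 shRNA array was above every control array, and NFAT1 shRNA 2 was the highest. The means were 9.62 ± 0.22 in NFAT1 shRNA cells and 9.14 ± 0.09 in control cells (SD, n = 3 each). Their difference was 0.49 ± 0.13 (SE, limma adjusted p = 0.195). This is 1.40-fold, with a 95% interval of 1.13 to 1.73. The probe set 1417818_at read 10.72, 11.30 and 11.17 in NFAT1 shRNA cells, against 10.47, 10.71 and 10.58 in control cells. It differed by 0.48 ± 0.16 (adjusted p = 0.263), and NFAT1 shRNA 1 lay barely above control 2. On 1437155_a_at the arrays read 8.38, 8.89 and 8.67 in NFAT1 shRNA cells and 8.15, 8.35 and 8.08 in control cells, a difference of 0.45 ± 0.15 (adjusted p = 0.251). The order of the NFAT1 shRNA arrays was the same on all 3 probe sets, with NFAT1 shRNA 1 nearest to the controls.

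Without NFAT1 shRNA 1 all 3 Wwtr1 probe sets passed, with differences of 0.60, 0.65 and 0.58 (limma adjusted p = 0.0226, 0.0171 and 0.0313), when 12.9% of all probe sets passed. They also passed with array weights, which count an array less the more it departs from its group (0.59, 0.57 and 0.60, adjusted p = 0.0348, 0.0487 and 0.0462), when 5.06% of all did. Array weights gave NFAT1 shRNA 1 a weight of 0.368 and control 3, the array between the other two controls, a weight of 5.01. Whether control 3 is a separate culture is not stated in the labels and was not tested. Without both of these arrays the Wwtr1 differences were 0.56, 0.65 and 0.53. None of the 3 probe sets passed (adjusted p = 0.113, 0.0947 and 0.134), when 0 of all 45037 probe sets did. Without any 1 control array, the adjusted p of 1417817_a_at was 0.400 to 0.519, and again 0 of all probe sets passed. Failing to pass in these settings is therefore not particular to Wwtr1.

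Yap1 was read by a pair of probe sets that went opposite ways in the mean. On 1448363_at the arrays read 10.80, 11.16 and 11.14 in NFAT1 shRNA cells, against 10.59, 10.89 and 10.82 in control cells. NFAT1 shRNA 1 lay within the control range, and the other two NFAT1 shRNA arrays above it. The difference was 0.27 ± 0.13 (adjusted p = 0.371), or 1.20-fold with a 95% interval of 0.97 to 1.50. On 1416487_a_at the arrays read 7.69, 7.11 and 7.18 in NFAT1 shRNA cells and 7.72, 7.31 and 7.56 in control cells. The difference there was -0.21 ± 0.18 (adjusted p = 0.595), with a 95% interval of -0.64 to 0.23. The groups overlapped on both probe sets, and the part of the transcript each one reads was not analysed here.

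TEAD factors bind DNA at sites close to the letters GGAATG, and the coactivators have no DNA-binding domain of their own. Promoter windows of 300 bases, from 250 before to 50 after an annotated start, were taken from RefSeq (GRCm38.p6) for 7 of the 9 genes, in 10 windows. Tead1 and Tead4 had no window in the table. The hexamer, on either strand as GGAATG or CATTCC, was found in 6 of the 10 windows and 5 of the 7 genes. It is in 14.7% of all 32851 windows. It begins 136 bases upstream of the outer start of Wwtr1, and 210 and 123 upstream of that of Ankrd1. In Yap1 and Amotl2 it begins 141 and 65 bases upstream of an annotated start that is not the outer one. It follows such a start of Lats2 by 4 bases. The Wwtr1 windows overlap and hold the same site, 170 bases upstream of the other start, so it is counted in both. The 14.7% is a share of windows, and no share of genes was computed. The windows of Cav1 and Cav2 do not hold the hexamer. The core letters GGAAA (or TTTCC), which NFAT factors bind and which share their first 4 letters with the TEAD hexamer, were in 5 of the 10 windows and in 61.3% of all. Such matches describe the sequence and are not evidence of binding. The 250 bases upstream of the outer start are shown for the gene that was higher on all its probe sets (Wwtr1), the gene that was lower without overlap and has no hexamer (Cav1), and the target gene with a pair of hexamers (Ankrd1), with each hexamer in capitals:
Wwtr1 chr3:57575911-57576160 (minus strand): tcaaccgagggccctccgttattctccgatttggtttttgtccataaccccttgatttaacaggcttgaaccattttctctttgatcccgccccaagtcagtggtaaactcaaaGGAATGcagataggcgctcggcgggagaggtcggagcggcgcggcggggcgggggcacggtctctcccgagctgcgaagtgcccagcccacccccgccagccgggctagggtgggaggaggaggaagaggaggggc
Cav1 chr6:17306085-17306334 (plus strand): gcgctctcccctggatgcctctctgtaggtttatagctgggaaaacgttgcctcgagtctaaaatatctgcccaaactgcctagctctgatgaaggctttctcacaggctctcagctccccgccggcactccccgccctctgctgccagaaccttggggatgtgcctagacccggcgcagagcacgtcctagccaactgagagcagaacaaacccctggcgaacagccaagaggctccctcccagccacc
Ankrd1 chr19:36119845-36120094 (minus strand): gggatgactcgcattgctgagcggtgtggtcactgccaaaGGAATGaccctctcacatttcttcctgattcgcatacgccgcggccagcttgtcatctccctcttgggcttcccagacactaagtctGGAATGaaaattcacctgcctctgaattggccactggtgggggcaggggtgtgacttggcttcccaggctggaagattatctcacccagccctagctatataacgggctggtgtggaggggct

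The TEAD genes encode the DNA-binding partners. Tead1 on 1429556_at read 10.55, 10.59 and 10.83 in NFAT1 shRNA cells, against 10.54, 10.66 and 10.62 in control cells. The difference was 0.05 ± 0.10 (adjusted p = 0.823), with a 95% interval of -0.19 to 0.29, so a change of 1.23-fold upward stayed within it. The other Tead1 probe set, 1423434_at, read 5.90, 5.25 and 5.62 in NFAT1 shRNA cells and 5.66, 5.71 and 5.62 in control cells (difference -0.07 ± 0.16, adjusted p = 0.856). Tead4 on 1426337_a_at read 5.84, 5.50 and 5.81 in NFAT1 shRNA cells and 6.10, 5.84 and 5.87 in control cells. These groups did not overlap, although NFAT1 shRNA 1 and control 2 were nearly equal, and the difference was -0.22 ± 0.13 (adjusted p = 0.419). Tead4 on 1460683_at differed by 0.07 ± 0.17 (adjusted p = 0.858), with overlapping groups. Both Tead4 probe sets and the dimmer one of Tead1 read close to the array medians.

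Amotl2, which encodes an angiomotin-family scaffold that binds YAP, was read by 1 probe set. Its signal was 9.84, 9.08 and 9.83 on NFAT1 shRNA arrays 1 to 3, against 10.16, 9.96 and 10.02 on the control arrays. All NFAT1 shRNA arrays were below all control arrays, and NFAT1 shRNA 2 stood well below the other two. The mean was 9.58 ± 0.44 in NFAT1 shRNA cells and 10.05 ± 0.10 in control cells (SD, n = 3 each). The difference was -0.47 ± 0.21 (SE, limma adjusted p = 0.342), with a 95% interval of -0.97 to 0.04. Without NFAT1 shRNA 2 the difference was -0.21 (adjusted p = 0.560).

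Ankrd1, a repeat protein of muscle cells that other cells transcribe through YAP and TEAD, had the widest NFAT1 shRNA range of the 21 probe sets. On 1420991_at it read 10.31, 9.88 and 11.04 in NFAT1 shRNA cells, against 10.30, 10.43 and 10.33 in control cells. NFAT1 shRNA 3 was above all controls, NFAT1 shRNA 2 below all of them, and NFAT1 shRNA 1 at their level. The second probe set, 1420992_at, showed the same order, with 10.87, 10.48 and 11.51 in NFAT1 shRNA cells against 10.91, 11.16 and 10.96 in control cells. The range over the NFAT1 shRNA arrays was 1.16 and 1.03 on the 2 probe sets, and 0.13 and 0.25 over the control arrays. The differences of the means were 0.06 ± 0.27 and -0.06 ± 0.25 (limma adjusted p = 0.932 and 0.923), with 95% intervals of -0.59 to 0.71 and -0.65 to 0.53. Leaving out NFAT1 shRNA 3 gave -0.26 and -0.34, and leaving out NFAT1 shRNA 2 gave 0.32 and 0.18, so that the mean rests on which of these arrays is kept.

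Lats2, the Hippo kinase that phosphorylates YAP and TAZ, was read by 6 probe sets, of which 5 averaged lower in NFAT1 shRNA cells. On 1439441_x_at the arrays read 7.37, 7.19 and 7.51 in NFAT1 shRNA cells, against 7.69, 7.72 and 7.59 in control cells. The groups did not overlap, and the difference was -0.31 ± 0.11 (adjusted p = 0.264). The suffix _x marks probe sets whose probes can match other transcripts. Lats2 on 1437101_at, without that suffix, read 7.24, 6.94 and 7.32 in NFAT1 shRNA cells and 7.53, 7.57 and 7.27 in control cells (difference -0.29 ± 0.14, adjusted p = 0.354). The other 4 probe sets differed by -0.16 to 0.04. On 1419679_at and 1426156_at both group means lay below the array medians, at 3.41 and 3.82 in NFAT1 shRNA cells and 3.47 and 3.91 in control cells.

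**Figure D2:**
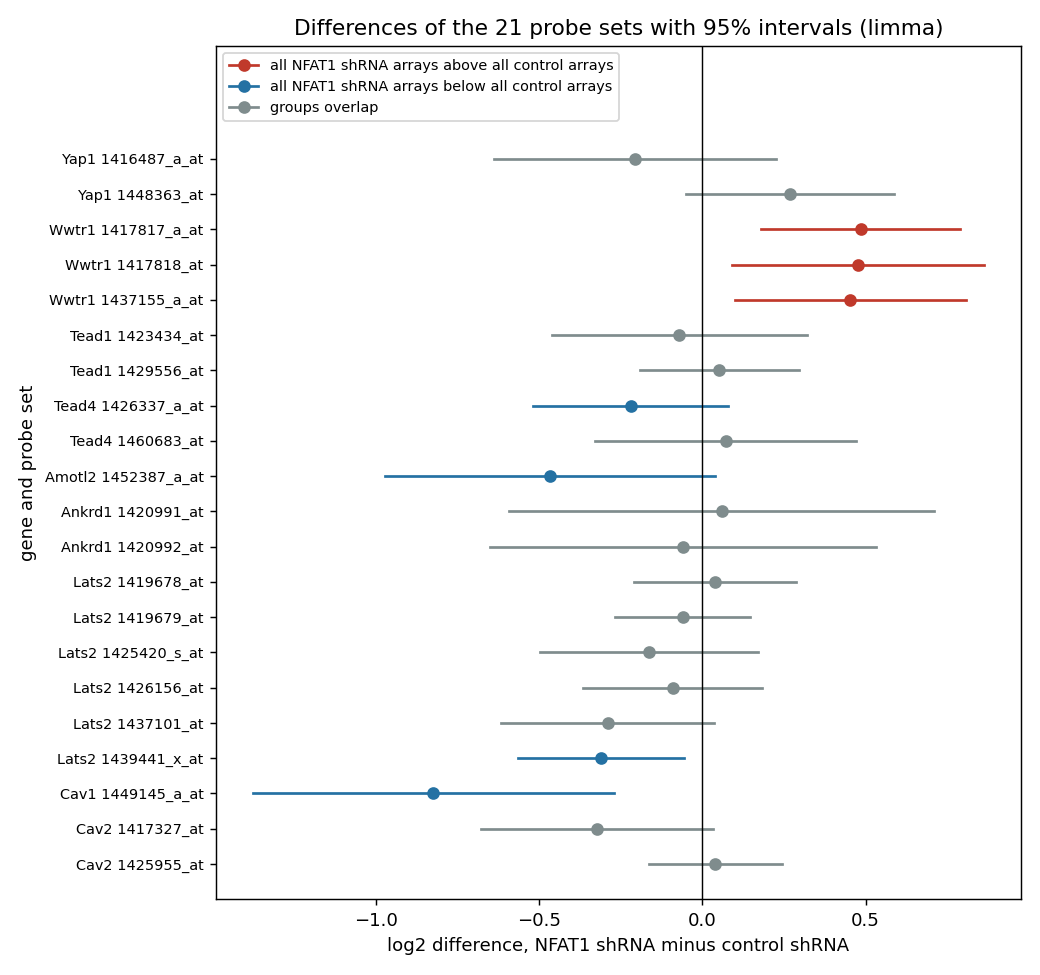
Log2 difference (NFAT1 shRNA minus control shRNA) of each of the 21 probe sets with its 95% interval from limma; colour shows whether the groups overlap. The intervals of the 3 Wwtr1 probe sets lie above 0, and those of Cav1 and Lats2 1439441_x_at below 0, before any adjustment for the number of probe sets.

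Cav1 encodes the caveolin that is needed to form caveolae outside muscle. It read 9.68, 9.11 and 10.09 on NFAT1 shRNA arrays 1 to 3, against 10.41, 10.42 and 10.52 on the control arrays. All NFAT1 shRNA arrays were below all control arrays, with NFAT1 shRNA 2 the lowest. The means were 9.62 ± 0.49 in NFAT1 shRNA cells and 10.45 ± 0.06 in control cells (SD, n = 3 each). The difference was -0.82 ± 0.23 (SE, adjusted p = 0.212), a level 56.5% of control, and the 95% interval was -1.38 to -0.27. Over 16 other settings it ran from -1.06 to -0.57 and passed in 1 of them, with array weights (-0.97, adjusted p = 0.0432). Without NFAT1 shRNA 2, when 0 of all probe sets passed, it was -0.57 (adjusted p = 0.370). Without NFAT1 shRNA 1, where 3 of the 21 probe sets passed, Cav1 did not (-0.85, adjusted p = 0.0893).

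**Figure D3:**
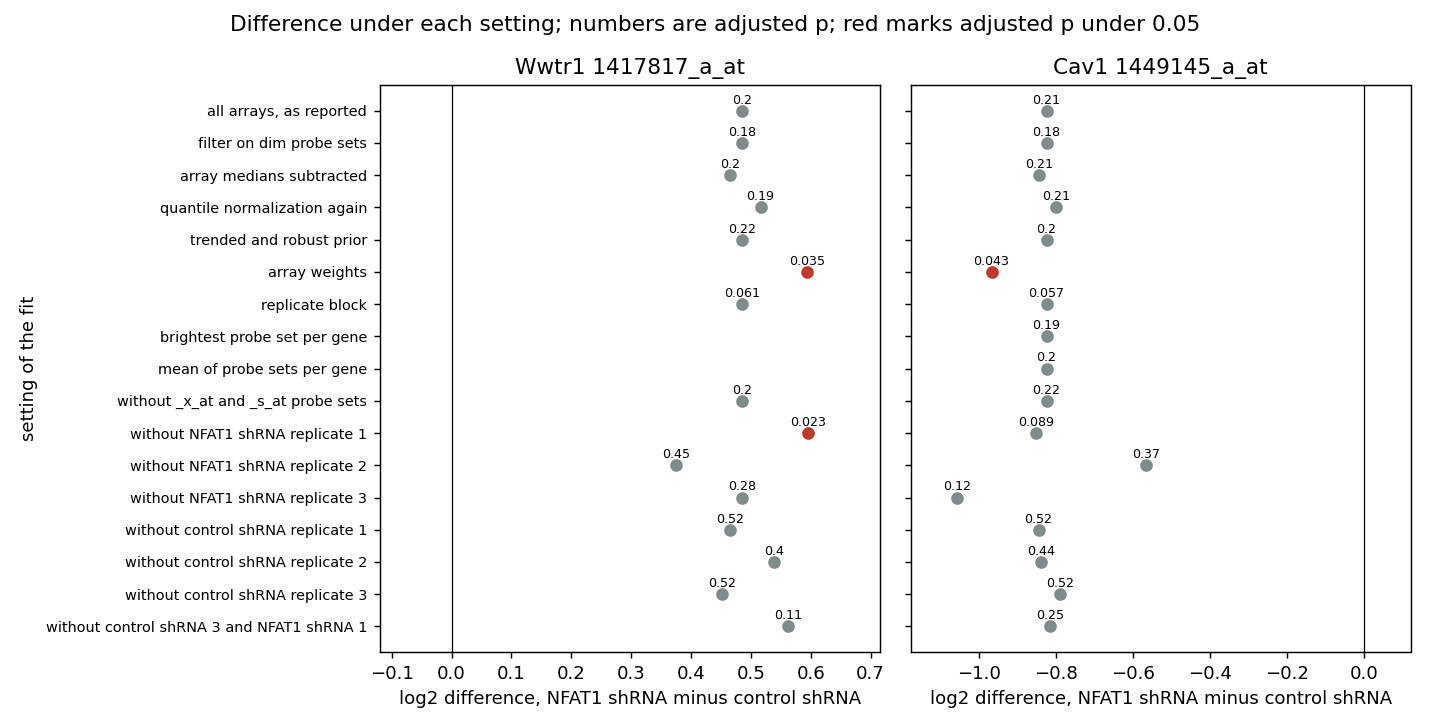
Log2 difference (NFAT1 shRNA minus control shRNA) of Wwtr1 1417817_a_at and Cav1 1449145_a_at under each setting of the limma fit, with the adjusted p written above each point and red for values under 0.05. Wwtr1 passed with array weights and without NFAT1 shRNA 1, and Cav1 with array weights.

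Cav2 encodes the partner caveolin that joins the same complexes, and lies beside Cav1 on chromosome 6 with 0 annotated genes between them. On 1417327_at it read 11.25, 11.09 and 11.65 in NFAT1 shRNA cells, against 11.59, 11.71 and 11.66 in control cells. NFAT1 shRNA 1 and 2 were below the controls and NFAT1 shRNA 3 at their level, so the groups overlapped. The difference was -0.32 ± 0.15 (adjusted p = 0.348). The NFAT1 shRNA arrays kept the same order as for Cav1, lowest on NFAT1 shRNA 2 and highest on NFAT1 shRNA 3. The other Cav2 probe set, 1425955_at, read 6.24, 6.04 and 6.09 in NFAT1 shRNA cells and 6.06, 6.10 and 6.08 in control cells (difference 0.04 ± 0.09, adjusted p = 0.841).

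Other caveola genes were read by 22 probe sets of 9 listed genes, of which 1 rose with limma over all probe sets, 0 fell and 21 did not pass (0.0755% of all probe sets rose and 0.124% fell). The median difference of the list was 0.12. Cavin3, which encodes a caveola coat protein, read 8.99, 8.80 and 8.94 in NFAT1 shRNA cells, against 8.18, 8.21 and 8.21 in control cells. The 3 NFAT1 shRNA arrays lay together and well above the controls, and Cavin3 rose by 0.71 ± 0.08 (SE, adjusted p = 0.0460), or 1.63-fold. It did not pass with array medians subtracted (0.0568), with a filter on dim probe sets (0.0583), with a trended and robust prior (0.0813), or without any 1 array other than NFAT1 shRNA 1 (0.0895 to 0.350). Without NFAT1 shRNA 2 or any 1 control array, 0 of all probe sets passed. Ehd2, an ATPase at the neck of caveolae, had a higher mean on 3 probe sets (0.48, 0.52 and 0.51, adjusted p = 0.249, 0.257 and 0.296) and a lower one on the other 2 (-0.51 and -0.08). Those 2 lower probe sets were under the array medians in both groups. Ehd4, a relative of Ehd2, differed by 0.39 ± 0.08 (adjusted p = 0.150). Cavin1, the main coat protein, differed by 0.22 on the dim probe set 1453891_at (adjusted p = 0.366), and by 0.07 on 1424130_a_at.

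Cavin2 differed by -0.43, -0.37 and -0.40 on its 3 probe sets (adjusted p = 0.664, 0.681 and 0.647), with NFAT1 shRNA arrays on both sides of the controls. On 1416778_at it read 8.30, 8.51 and 10.18 in NFAT1 shRNA cells, against 9.38, 9.48 and 9.43 in control cells. Which array was left out decided this difference. It was -0.086 without NFAT1 shRNA 1 (limma adjusted p = 0.927), -0.19 without NFAT1 shRNA 2 (0.915) and -1.03 without NFAT1 shRNA 3, the array above the controls (0.0480). Cavin4, the cavin of muscle, was dim on all arrays and differed by -0.16 (adjusted p = 0.516).

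Of 28 listed YAP/TEAD target genes, 26 were read by 62 probe sets. With limma 0 passed over all probe sets, 3 were higher and 10 lower at an unadjusted p under 0.05 (backgrounds of 8.03% and 7.65%), and the median difference was -0.079. The receptor tyrosine kinase gene Axl read 10.14, 9.43 and 9.90 on 1423586_at in NFAT1 shRNA cells, against 11.12, 10.91 and 11.07 in control cells. The groups did not overlap and the difference was -1.21 ± 0.18 (adjusted p = 0.0732). On 1438621_x_at, under the array medians in both groups, Axl differed by -0.07 (adjusted p = 0.794). Gadd45b, a stress response gene, differed by -1.90, -1.51 and -1.63 on its 3 probe sets (adjusted p = 0.129, 0.150 and 0.182), and the matrix gene Thbs1 by -0.91 (adjusted p = 0.156). The means of Arhgef17 on 1419939_at, Asap1 on 1435059_at and Myof on 1427318_s_at were higher, by 0.27, 0.56 and 0.37 (adjusted p = 0.239, 0.294 and 0.309). Arhgef17 on 1419939_at was under the array medians in both groups, and on its brightest probe set, 1433682_at, it differed by -0.03. Myof differed by -0.14 on 1452455_at, which was also under the medians.

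Ccn2 and Ccn1, secreted matricellular proteins often used as a readout of YAP, are given here although the rule for named genes did not take them, and were chosen after their values were seen. Ccn2 read 11.40, 8.56 and 11.11 in NFAT1 shRNA cells, against 12.38, 12.02 and 12.29 in control cells. All NFAT1 shRNA arrays were below the controls, and NFAT1 shRNA 2 was far below the other two. The difference was -1.87 ± 0.70 (limma adjusted p = 0.289), and -0.98 without NFAT1 shRNA 2 (adjusted p = 0.188). Ccn1 had 4 probe sets, which fell into pairs. On 1416039_x_at it read 10.04, 8.17 and 9.93 in NFAT1 shRNA cells against 10.66, 10.35 and 10.58 in control cells, and 1438133_a_at showed the same pattern (differences -1.15 and -1.20, adjusted p = 0.316 and 0.325). On 1457823_at it read 8.39, 7.15 and 10.89 in NFAT1 shRNA cells against 9.0, 9.04 and 8.98 in control cells, like 1442340_x_at (differences -0.20 and -0.24, adjusted p = 0.925 and 0.906). The second pair was thus highest on NFAT1 shRNA 3, and the first pair was not.

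**Figure D4:**
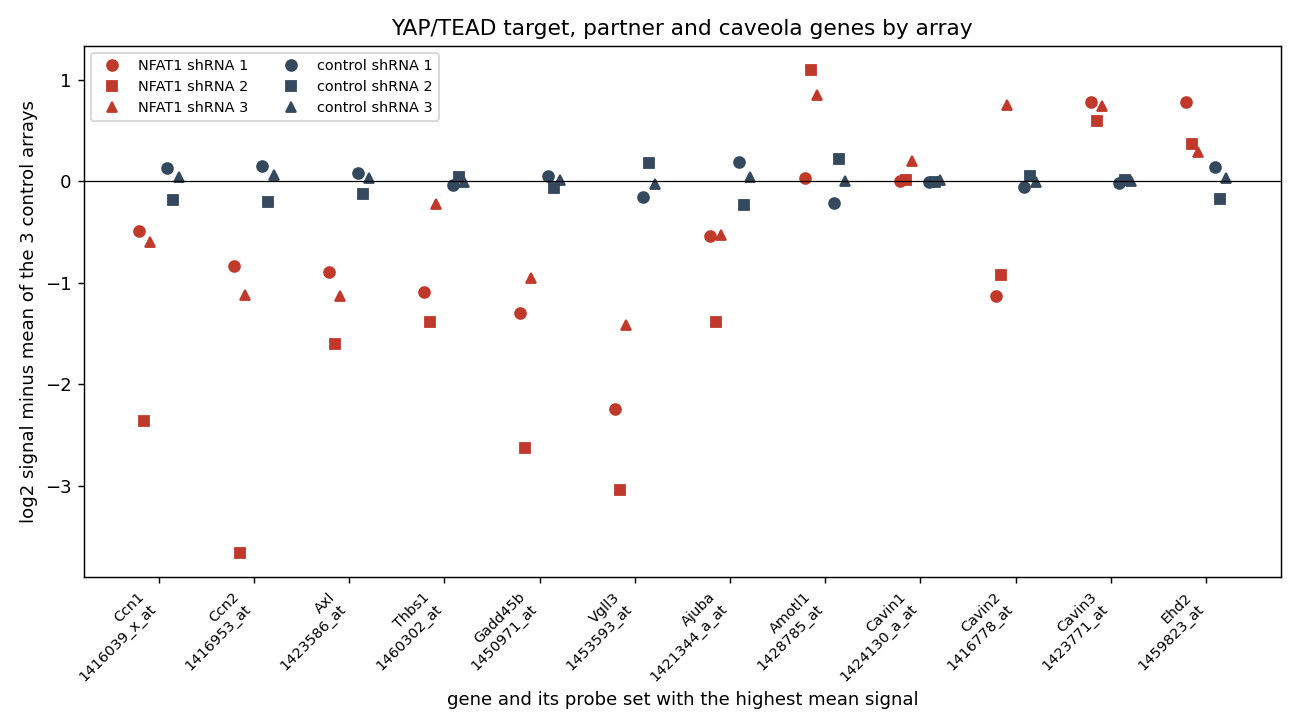
Log2 signal minus the mean of the 3 control arrays for 12 listed genes, each on its probe set with the highest mean. Red marks are NFAT1 shRNA arrays and dark marks control arrays. The 12 genes are a selection, and target genes with a higher mean, such as Asap1, are not shown. Of the 62 target probe sets, 25 had a higher mean and 37 a lower one. NFAT1 shRNA 2 is the lowest array for Ccn1, Ccn2, Axl, Thbs1, Gadd45b, Vgll3 and Ajuba, and the 3 NFAT1 shRNA arrays of Cavin3 lie together above the controls. Over the whole lists, NFAT1 shRNA 2 was lowest for 25 of 62 target, 5 of 34 partner and 3 of 22 caveola probe sets. It was lowest for 21.4% of all probe sets.

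Partners and inhibitors of YAP other than the 9 genes were 16 measured genes of 18 listed, with 34 probe sets. With limma 0 passed, and the median difference was 0.050. At an unadjusted p under 0.05, 8 were higher and 4 lower, against 8.03% and 7.65% of all probe sets. Together these are 35.3% of the list, but several are probe sets of the same gene. The 8 were of Amotl1, Src, Runx1 and Vgll4, and the 4 of Vgll3 and Ajuba. Vgll3 encodes a cofactor that binds TEAD factors in place of YAP. On 1453593_at it read 3.40, 2.59 and 4.22 in NFAT1 shRNA cells, against 5.48, 5.82 and 5.61 in control cells, without overlap. Its differences were -1.94, -2.23 and -1.60 on the 3 probe sets (adjusted p = 0.0633, 0.0895 and 0.124). The first of these fell past the threshold with a trended and robust prior (0.0418), with array weights (0.0120), and without NFAT1 shRNA 1 (0.0135) or NFAT1 shRNA 3 (0.0462). Every NFAT1 shRNA mean of Vgll3 was under the array medians, and so were the control means on 1430596_s_at (5.02) and 1455299_at (4.28). Ajuba, a LIM protein that restrains LATS kinases, differed by -0.82 ± 0.25 (adjusted p = 0.234). Amotl1, which like Amotl2 encodes a YAP-binding angiomotin, had higher means on all 3 probe sets, with differences of 0.66, 0.44 and 0.76 (adjusted p = 0.316, 0.232 and 0.311). On 1428785_at it read 11.23, 12.29 and 12.05 in NFAT1 shRNA cells against 10.98, 11.41 and 11.20 in control cells, overlapping at NFAT1 shRNA 1. Smaller differences were found for Src, a kinase that activates YAP (0.25, adjusted p = 0.279), for Vgll4, a cofactor that competes with YAP for TEAD factors (0.28, 0.289), and for the phosphatase gene Ptpn14 on 1436442_at (-0.23, 0.375). The Ptpn14 probe sets disagreed, with -0.26 on 1421499_a_at and 0.24 on 1455359_at, the brightest.

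The Hippo kinases and scaffolds upstream were 19 measured genes of 20 listed, with 61 probe sets and a median difference of -0.046. With limma 0 passed, and 3 were higher and 7 lower at an unadjusted p under 0.05. Together these are 16.4% of the list, near the 15.7% of all probe sets. Nf2, the scaffold that brings LATS kinases to the membrane, differed by -0.68 on 1427708_a_at (adjusted p = 0.227). On its brightest probe set, 1421820_a_at, Nf2 differed by 0.20 with overlapping groups (adjusted p = 0.640). It differed by -0.06 on 1450382_at and by 0.09 on 1451829_a_at. Rassf1, a scaffold of the Hippo kinases, differed by -0.64 on 1457788_at (adjusted p = 0.228), and by -0.10 to 0.06 on its other 3 probe sets. Frmd6 differed by -0.44 (adjusted p = 0.230). Lats1, the kinase paired with Lats2, differed by 0.22 on 1435739_at (adjusted p = 0.309) and by -0.14 on 1427679_at. The kinase gene Map4k4 differed by 0.40 on 1434184_s_at, and by -0.23 to 0.0002 on its other 4 probe sets. The cadherin gene Dchs1 differed by 0.27 (adjusted p = 0.316). The 4 listed muscle relatives and partners of Ankrd1 had 10 probe sets, of which 0 passed and 0 had an unadjusted p under 0.05, and 8 had both group means below the array medians.

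The genes most like Yap1, Cav1 and Ankrd1 across the arrays are given as a description, by Pearson correlation over the 6 arrays among probe sets with 1 symbol and a mean of at least 7. The 6 arrays share their groups and their spread, and 12951 or 12952 probe sets were compared, so no p is given. Nearest to Yap1 on 1448363_at were Ppox, Vps13a, Arhgap39 and Gsdmd (0.996 to 0.997). Nearest to Cav1 were Sap30, Slc48a1, Xpnpep1 and Vcl, which encodes vinculin of focal adhesions (0.992 to 0.996). Nearest to Ankrd1 on 1420992_at were Pak3, Mettl26, Cnnm3 and Nsmce1 (0.977 to 0.992).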

How the data were processed

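Affymetrix mouse arrays measured RNA in 6 samples, 3 with NFAT1 shRNA and 3 with control shRNA, grouped by their labels. The authors deposited log2 values, and RMA is the method per the submitters' processing notes (version not given in the sources used here). RMA subtracts background, normalizes by quantiles and summarises probes, which would hide a general shift of most transcripts. Of 45037 probe sets, 34945 had 1 symbol in the platform annotation, 932 several, and 9160 are unnamed here.

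The whole table was fitted without covariates in limma 3.58.1 (lmFit, eBayes; R 4.3.3), 2-sided, with Benjamini-Hochberg adjustment over the whole table. Figures and counts used Python 3.11.15. The fit was tested first on simulated data with independent noise for each probe set and array, which cannot speak to arrays that stand apart. The 9 genes and 5 lists (80 genes) were chosen with earlier results of these data known. Named list genes are those past the threshold and up to 3 each way with the smallest p. The muscle list is given by counts only. Alternatives were a dim filter, other scaling, a trended robust prior, array weights, a replicate block, 1 value per gene, dropping _x_at and _s_at probe sets, and leaving out each array. Precision is limited by the number of arrays. Promoters came from RefSeq, GRCm38.p6, and no protein sequence was used here.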

Additional observations from a re-analysis of the deposited data

How the results depend on the processing

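Over the other settings, 16 of 303 values of the 21 probe sets turned sign, 7 passed the threshold (6 of Wwtr1, 1 of Cav1), and 280 kept sign and side. The count of changed probe sets among the 21, 0 with limma (5 at an unadjusted p under 0.05), was 4 with array weights and 0 to 3 without 1 array, 3 without NFAT1 shRNA 1. The count over all probe sets, 90, was 2279 with array weights. It was 0 to 5794 without 1 array: 0 without NFAT1 shRNA 2 or any 1 control (3992 to 5086 at an unadjusted p under 0.05), 80 without NFAT1 shRNA 3 and 5794 without NFAT1 shRNA 1. Without control 3 and NFAT1 shRNA 1 together, chosen after seeing the data, it was 0 (9273 unadjusted). Of 189 listed probe sets 1 changed, Cavin3. This was 0 with the dim filter (23 unadjusted), with array medians subtracted (33) and without control 3 and NFAT1 shRNA 1 (41), 14 with array weights, and 0 to 24 without 1 array, 24 without NFAT1 shRNA 1. With the trended and robust prior the 1 call was Vgll3 in place of Cavin3.

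Same-numbered arrays deviated together with correlations of 0.62, 0.51 and 0.051, and NFAT1 shRNA 3 correlated best with control 2 (0.27). Control 3 lay between the other controls where these differed, so this check cannot decide whether the arrays numbered 3 are a pair. The labels number the arrays without stating pairs, and the numbers were not taken as pairs. With a replicate block 1432 of all probe sets, 0 of the 21 and 10 of the listed ones changed (10392, 8 and 47 at an unadjusted p under 0.05).

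Signs that turned, all with limma adjusted p of at least 0.457, were these. Averaging the probe sets of each gene gave -0.0089 for Tead1, and with array weights Ankrd1 1420991_at was -0.0090. Without control 3 and NFAT1 shRNA 1, Tead4 1460683_at was -0.14, Lats2 1419678_at -0.043, Cav2 1425955_at -0.016 and Ccn1 1457823_at 0.00027. Leaving out 1 array gave ranges of -0.23 to 0.0999 for Tead1 1423434_at and -0.034 to 0.11 for 1429556_at. Tead4 1460683_at ran from -0.083 to 0.23, Ankrd1 from -0.26 to 0.32 and from -0.34 to 0.18 on its 2 probe sets, and Cav2 1425955_at from -0.017 to 0.082. Lats2 ran from -0.018 to 0.12 on 1419678_at, -0.095 to 0.0026 on 1419679_at and -0.17 to 0.016 on 1426156_at. Ccn1 ran from -1.29 to 0.57 on 1442340_x_at and -1.24 to 0.63 on 1457823_at. The cause of these changes was not tested.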
